A study of Mus musculus with 6 samples.

Results

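The 39 genes described here are the sensors, receptors, transcription factors and effectors of the interferon response, together with core genes of class I antigen presentation. They were taken as a named list from the 43629 genes of the deposited tables, and all 39 were found there by symbol. The samples were primary dermal fibroblasts, the collagen-producing cells of the skin, from newborn mice on a mixed background of 50% C57Bl/6 and 50% FVB/N. Libraries caNrf2 1 to 3 came from mice that combined Col1a2Cre with caNrf2, a constitutively active mutant of the transcription factor Nrf2. Libraries ctrl 1 to 3 came from mice with Col1a2Cre only, so that all 6 cultures carried the Cre recombinase, whose promoter is active in fibroblasts. All cells had been cultured for 6 days and were at passage 1. Each library was taken to stand for 1 mouse. The share of cells in which Cre had acted is not given in the sources used here.

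In the interferon response, cytosolic RNA sensors such as RIG-I and MDA5 trigger the production of type I interferons, which bind the receptor made of IFNAR1 and IFNAR2. The receptor's kinases activate STAT2 and its STAT partner, which join IRF9 and bind a DNA motif called the interferon-stimulated response element (ISRE) in the promoters of antiviral genes. Class I molecules, made of a heavy chain and beta-2 microglobulin and loaded with peptides through the TAP transporter, show T cells what is made inside a cell, and most cell types carry them without any infection.

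Nfe2l2, which encodes Nrf2, was higher in every caNrf2 library, and its reads may come from the gene or the transgene. It had 352.5, 429.9 and 357.9 CPM in caNrf2 1 to 3 and 113.2, 102.6 and 112.3 CPM in ctrl 1 to 3 (counts scaled to a common library size, in CPM, after TMM normalization). Total expected counts were 30168400 to 45164208 per library. All 10 fibroblast markers looked for were tested, and of these 5 were lower (Col1a1, Col1a2, Col3a1, Fn1 and Pdgfrb, at folds of 0.505 to 0.732) and 2 higher (Pdgfra and Thy1), all named after their values were seen. Of 21 tested markers of keratinocytes, endothelium, skeletal muscle, melanocytes and Schwann cells, 7 were higher and 0 lower in edgeR. Of these 7, 4 were skeletal muscle markers. Beside all marker counts given here, 12.5% of all genes tested were higher and 9.03% were lower. The skeletal muscle markers summed to 104.9 to 125.1 CPM in caNrf2 libraries and 60.8 to 73.7 CPM in ctrl libraries. The 18 markers of macrophages and other leukocytes were all tested, at a summed 172.2 to 208.6 CPM in caNrf2 libraries and 22.95 to 67.22 CPM in ctrl libraries, where ctrl 1 was the lowest. None of the 18 was at 0 in either group, and 17 rose in caNrf2 cultures. Lyz2, the lysozyme gene of myeloid cells and the most abundant of them, had 102.6, 103.9 and 86.3 CPM in caNrf2 libraries and 10.4, 35.2 and 34.0 CPM in ctrl libraries. Cd53, a leukocyte membrane protein gene, had 2.84, 2.80 and 2.90 CPM in caNrf2 libraries and 0.479, 0.938 and 0.661 CPM in ctrl libraries. In bulk cultures such as these, fewer cells of a type and less RNA per cell cannot be told apart. The part of these shifts in fibroblast, muscle and leukocyte RNA in the results below was not tested.

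The genes for the RNA sensors RIG-I and MDA5, the factors STAT2 and IRF9 and the IFIT proteins were lower in caNrf2 cultures. So were 5 of 6 modifiers of the ubiquitin, ISG15 and ADP-ribose kind. Irf7 was lower by its gene total, but the groups overlapped in its protein-coding transcripts. The interferon receptor and the class I genes did not pass the test, and Gbp2 and Bst2 were higher. Of the 39 genes, 34 had enough counts to be tested. Of these, 16 were lower and 2 higher at an adjusted p under 0.05 in edgeR's quasi-likelihood test, with the Benjamini-Hochberg adjustment over all genes tested. A gene said here to be called, to rise or to fall passed that threshold. Over all 15341 genes tested, 9.03% were called lower and 12.5% were called higher. The folds of caNrf2 over ctrl lay between 0.228 and 0.749 in the 16 lower genes and between 1.48 and 2.22 in the 2 higher ones. All 3 caNrf2 libraries lay below all 3 ctrl libraries in 17 of the 34 genes, against 20.1% of all genes tested, and above them in 2, against 22.0%. The median log2 fold change was -0.41 in the 34 genes and -0.003 in all genes tested. Usp18 passed the filter on low counts through the ctrl libraries only. With no filter, 18 of the 39 were called lower.

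**Figure D1:**
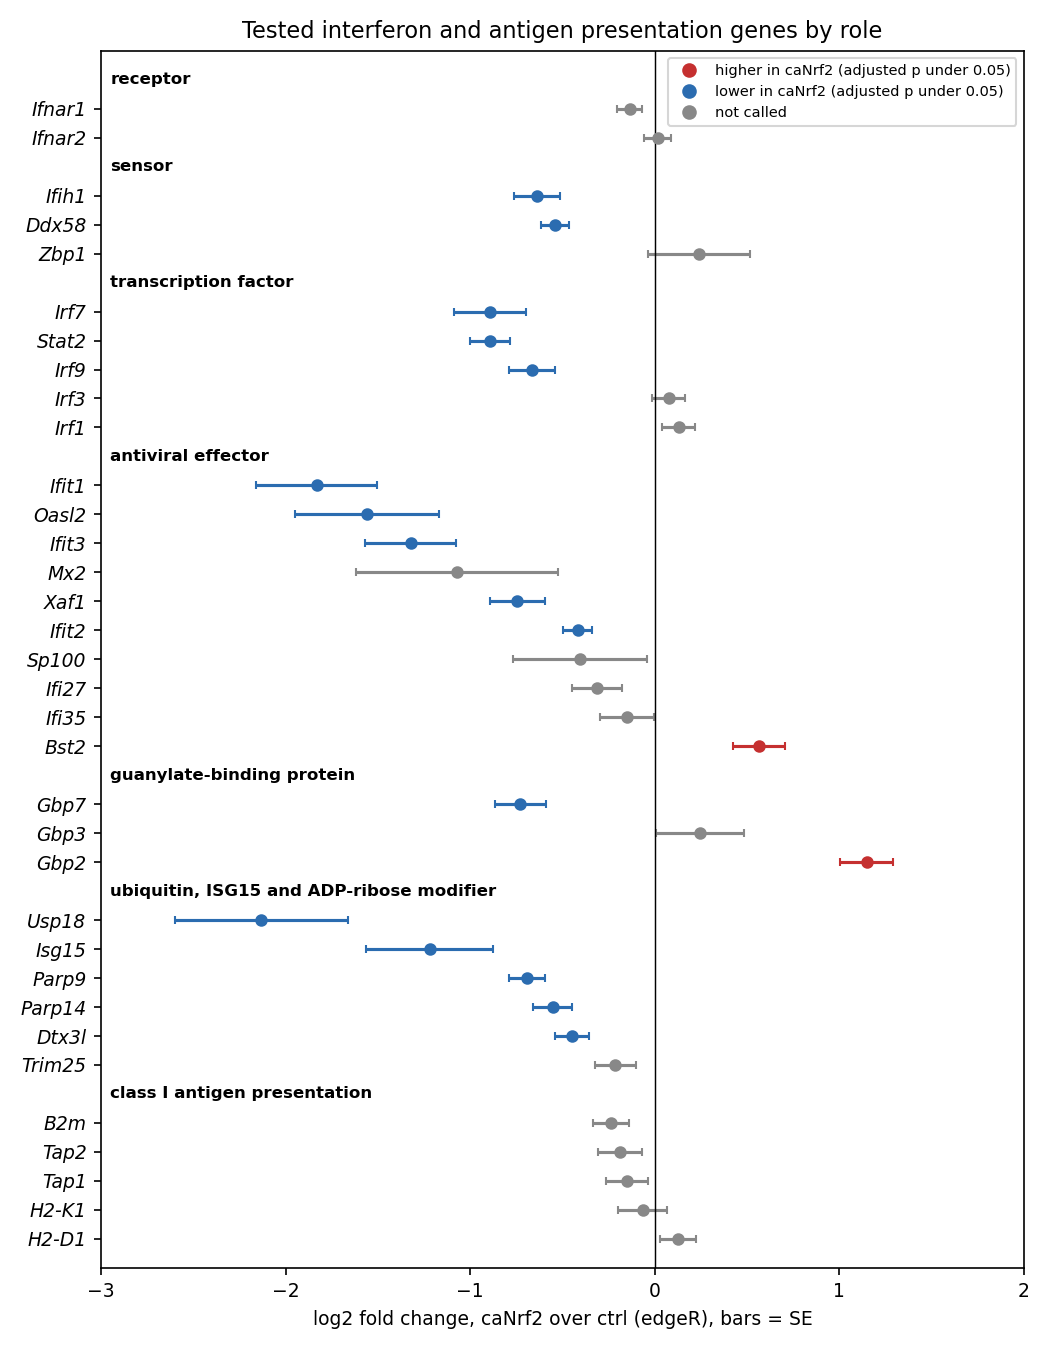
Log2 fold change of caNrf2 over ctrl for the 34 tested genes, in blocks by role, with bars for the standard error (edgeR, n = 3 per group). Blue points (lower, 16 genes) make up 2 of 3 sensors, 3 of 5 factors, 5 of 10 effectors and 5 of 6 modifiers, the red points (higher) are Bst2 and Gbp2, and the receptor and class I blocks hold only gray points.

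The promoters show how many of these genes carry the letters of the ISRE. Written as GAAA, any 2 bases and GAAA, and searched on both strands, it occurred in the promoter windows of 13 of the 30 genes that had one in the RefSeq table of GRCm38.p6 (250 bases before to 50 after the annotated start). It occurred in 3.99% of all 27025 genes with a window. Of the 13 genes, 7 were lower, 2 were higher, 2 were not called and 2 were not tested. Of the 17 genes without a match, 6 were lower, 10 were not called and 1 was not tested. The stretches that follow show the matches in genes of each outcome. Capitals mark the ISRE letters, which read TTTC, any 2 bases and TTTC where the match is on the other strand, and a longer run of capitals holds overlapping matches. All are written 5′ to 3′ along the gene. The first 3 genes are members of the guanylate-binding protein cluster on chromosome 3.
Gbp2 (chr3:142620593-142620622, plus strand, higher): aactcttttagTTTCACTTTCactgtctta
Gbp3 (chr3:142559992-142560021, plus strand, not called): gacacagTTTCAGTTTCTATTTCccagatc
Gbp7 (chr3:142530273-142530302, plus strand, lower): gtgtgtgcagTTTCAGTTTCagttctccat
Isg15 (chr4:156200839-156200928, minus strand, lower): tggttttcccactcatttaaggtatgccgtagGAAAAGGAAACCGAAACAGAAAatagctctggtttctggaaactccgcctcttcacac
Ifit1 (chr19:34640769-34640858, plus strand, lower): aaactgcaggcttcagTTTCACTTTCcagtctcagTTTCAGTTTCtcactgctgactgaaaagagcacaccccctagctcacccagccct
Stat2 (chr10:128270258-128270347, plus strand, lower): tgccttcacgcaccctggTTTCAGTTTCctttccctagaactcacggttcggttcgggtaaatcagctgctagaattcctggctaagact
Bst2 (chr8:71537533-71537622, minus strand, higher): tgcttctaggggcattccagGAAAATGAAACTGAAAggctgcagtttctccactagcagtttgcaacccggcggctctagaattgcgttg
B2m (chr2:122147527-122147616, plus strand, not called): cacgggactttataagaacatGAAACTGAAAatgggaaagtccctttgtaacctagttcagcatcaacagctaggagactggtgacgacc

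The ISRE letters thus stood in the windows of genes that were lower, higher and not called. Positions are counted from the RefSeq start, so that -1 is the base before it. The match began at -59 in Gbp2, at -45 and -39 in Gbp3 and at -53 in Gbp7, much the same distance by that start. In the deposited tables, however, Gbp2 begins at 142620602, inside the printed stretch and ahead of its match. Whether this match lies before or within Gbp2 thus depends on the annotation. Isg15 had 3 overlapping matches, and Ifit1 had 2 separate ones at -104 and -85. Stat2 had its match farther out, at -222. The antioxidant response element that Nrf2 binds, searched as TGACNNNGC on both strands, was found in 5 of the 30 windows (Irf7, Oasl2, Rsad2, Ifi44 and H2-K1) and in 14% of all genes with a window. A match of letters is a description and shows no binding.

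**Figure D2:**
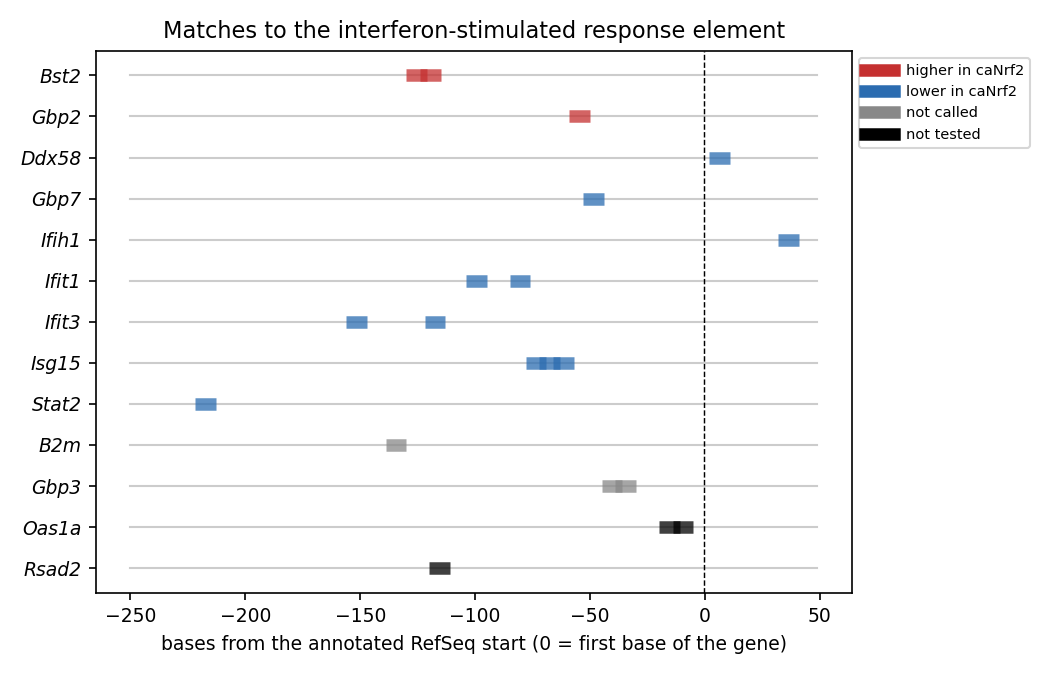
Positions of ISRE matches in the promoter windows of the 13 genes that hold one, in bases from the annotated start, colored by call. Matches of the 2 higher genes begin between -130 (Bst2) and -59 (Gbp2). Those of the lower genes begin between -222 (Stat2) and -53 (Gbp7), except those of Ddx58 and Ifih1, which lie just after the start.

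Both cytosolic RNA sensors of the RIG-I family in the list fell. Ddx58 (ENSMUSG00000040296, chromosome 4, 40203773 to 40239828, GRCm38) encodes RIG-I, the sensor of RNA with a 5′ triphosphate. It had 26.3, 29.9 and 28.2 CPM in caNrf2 1 to 3 and 42.1, 39.8 and 41.1 CPM in ctrl 1 to 3. The gap between the groups was larger than the spread within either, with a log2 fold change of -0.54 (SE 0.08, edgeR adjusted p = 0.00144). Ifih1 (ENSMUSG00000026896, chromosome 2, 62595798 to 62646255) encodes MDA5, the sensor of long double-stranded RNA. It had 5.09, 4.83 and 5.09 CPM in caNrf2 libraries and 7.70, 7.08 and 8.63 CPM in ctrl libraries. Its groups were likewise apart, with a log2 fold change of -0.64 (SE 0.12, edgeR adjusted p = 0.00718). Zbp1, a sensor of Z-form nucleic acids that can start necroptosis, had 1.68, 1.17 and 1.36 CPM in caNrf2 libraries and 0.789, 1.43 and 1.32 CPM in ctrl libraries. Its groups overlapped and it was not called (log2 fold change 0.24, edgeR adjusted p = 0.569).

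Stat2 and Irf9, through which interferon activates its target genes, fell, as did Irf7 by its gene total, while Irf3, which starts the response, and Irf1 did not pass the test. Stat2 (ENSMUSG00000040033, chromosome 10, 128270576 to 128292849) had 28.3, 23.8 and 30.4 CPM in caNrf2 libraries and 50.7, 46.6 and 55.6 CPM in ctrl libraries. The groups were far apart, and the fold of 0.539 (log2 fold change -0.89, SE 0.11, edgeR adjusted p = 0.00063) had the smallest adjusted p of the 34 genes. Irf9 (ENSMUSG00000002325, chromosome 14, 55603571 to 55610030), which gives the complex its DNA-binding specificity, had 16.2, 11.9 and 15.0 CPM in caNrf2 libraries and 21.8, 21.9 and 24.5 CPM in ctrl libraries. All its caNrf2 libraries were below all its ctrl libraries (log2 fold change -0.66, SE 0.12, edgeR adjusted p = 0.00544). Irf7 (ENSMUSG00000025498, chromosome 7, 141262706 to 141266481), the interferon-induced factor that amplifies interferon production, had 2.25, 2.01 and 1.68 CPM in caNrf2 libraries and 3.02, 4.22 and 3.77 CPM in ctrl libraries. All its caNrf2 libraries were below all its ctrl libraries (log2 fold change -0.89, SE 0.20, edgeR adjusted p = 0.0122). As the expected counts assign reads, the difference lay in transcripts that are not protein-coding. The retained-intron transcript ENSMUST00000155744 had 0 counts in all caNrf2 libraries, against 61.2, 36.9 and 58.3 expected counts in ctrl 1 to 3. The protein-coding transcripts of Irf7 summed to 2.06, 1.49 and 1.39 CPM in caNrf2 libraries and 1.0, 2.44 and 1.31 CPM in ctrl libraries, which overlapped, with a ratio of means of 1.04. In the other 15 lower genes the protein-coding transcripts had lower means in caNrf2 cultures too, with the groups apart in all but Isg15, a split looked at after the values were seen.

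Irf7 shares 45 exonic bases with Phrf1 on the other strand, which averaged 79.3 CPM, and Irf9 shares 123 with Rnf31 on the same strand, so that reads from these stretches cannot be told apart. The strand setting is not given in the sources used here. Irf3, the constitutive factor activated by RIG-I and MDA5 signalling, had 40.4, 34.8 and 35.8 CPM in caNrf2 libraries and 32.4, 37.5 and 35.3 CPM in ctrl libraries. Irf1, induced by interferon gamma and a driver of class I and guanylate-binding protein genes, had 31.7, 27.7 and 27.2 CPM in caNrf2 libraries and 27.8, 25.3 and 26.1 CPM in ctrl libraries. In both genes the groups overlapped. Neither was called, with log2 fold changes of 0.08 for Irf3 (SE 0.09, edgeR adjusted p = 0.577) and 0.13 for Irf1 (SE 0.09, edgeR adjusted p = 0.328).

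Neither receptor gene was called. Ifnar1, the chain that binds the kinase TYK2, had 74.6, 80.2 and 80.9 CPM in caNrf2 libraries and 85.5, 85.3 and 88.0 CPM in ctrl libraries. Each caNrf2 library was below each ctrl library, but the difference did not pass the test (log2 fold change -0.13, SE 0.07, edgeR adjusted p = 0.196). Ifnar2, the chain of high affinity, had 38.3, 34.8 and 36.1 CPM in caNrf2 libraries and 37.1, 34.7 and 36.2 CPM in ctrl libraries. Its groups covered nearly the same range (log2 fold change 0.02, SE 0.07, edgeR adjusted p = 0.892). Of the 2 receptor genes, 0 were called by edgeR, DESeq2 or limma-voom, and 0 had an unadjusted p under 0.05 in edgeR.

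Mouse Ifnar2 is known to make a membrane-spanning and a soluble form of the receptor. Of its expected counts, 47.3% ± 1.15 in caNrf2 cultures and 48.2% ± 2.2 in ctrl cultures (SD, n = 3 each) were assigned to ENSMUST00000117836, a transcript with 744 coding bases. ENSMUST00000023693, with 1539 coding bases, held 43.5% ± 5.25 in caNrf2 and 44% ± 1.73 in ctrl cultures. The groups thus split Ifnar2 in nearly the same way. Of the 50-base words of ENSMUST00000117836, 25.3% also occur in other genes, so its share is uncertain. Transcript usage was called in 0 of the 21 genes of the list with at least 2 tested transcripts (edgeR diffSpliceDGE), against 1.21% of all 7992 genes tested in this way. At an unadjusted p under 0.05 there were 3, and the smallest adjusted p was 0.106, in Irf7. Its protein-coding transcript ENSMUST00000026571 held 62.1% ± 17.9 of the Irf7 counts in caNrf2 and 29.6% ± 8.04 in ctrl cultures, and the retained-intron transcript ENSMUST00000155744 held 0% in caNrf2 and 42.6% ± 20.2 in ctrl cultures.

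**Figure D3:**
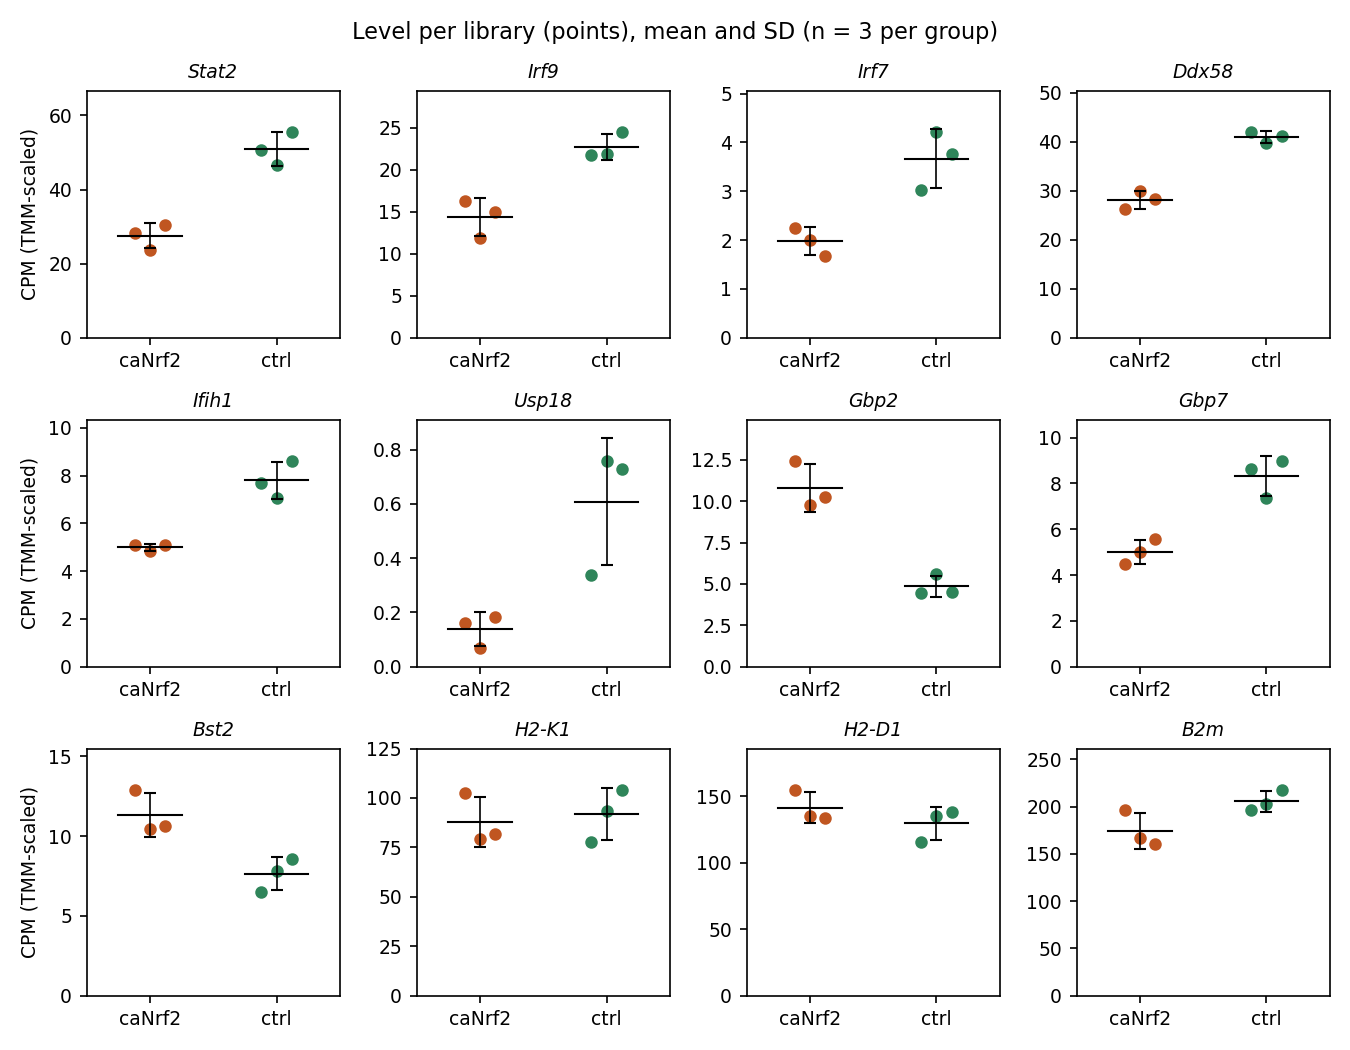
CPM of 12 genes in each library, with points for libraries, lines for means and bars for SD (n = 3 per group, caNrf2 on the left). The groups are apart for the 7 lower genes (Stat2, Irf9, Irf7, Ddx58, Ifih1, Usp18 and Gbp7) and for Gbp2 and Bst2, overlap for H2-K1 and H2-D1, and nearly touch for B2m.

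The interferon genes themselves were at or near 0. Ifnb1, Ifne, Ifng and Ifnk had 0 counts in all 6 libraries, which allows up to 0.0668 to 0.081 CPM in caNrf2 libraries and 0.0664 to 0.0994 CPM in ctrl libraries (3 counts per library, covering counting error only). Of the 21 interferon genes in the tables, 18 had 0 counts throughout. Ifna16 had 1 count and Ifnab had 1 count, each in a single library, and Ifnz had 2.04, 3.88 and 9.87 expected counts in caNrf2 libraries and 7.96, 3.23 and 1.51 in ctrl libraries. These 3 genes are named after their values were seen. The receptor's kinases were well expressed. Jak1 had 491.5, 487.7 and 544.4 CPM in caNrf2 libraries and 545.3, 509.9 and 573.7 CPM in ctrl libraries, which overlapped (log2 fold change -0.10, SE 0.09, edgeR adjusted p = 0.475). Tyk2 had 36.5, 35.9 and 35.0 CPM in caNrf2 libraries and 31.0, 34.1 and 36.6 CPM in ctrl libraries, which also overlapped (log2 fold change 0.08, SE 0.08, edgeR adjusted p = 0.532).

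Of the 15 antiviral effectors, 10 were tested, of which 5 fell, 1 rose and 4 were not called. The Ifit genes of the list, whose proteins bind viral RNA and hold back its translation, were all lower, by unequal amounts. Ifit1 had 0.595, 0.361 and 0.806 CPM in caNrf2 libraries and 1.49, 2.32 and 2.48 CPM in ctrl libraries, a fold of 0.281 (log2 fold change -1.83, SE 0.33, edgeR adjusted p = 0.00483). Ifit3, whose human protein stabilizes IFIT1 complexes, had 1.27, 0.767 and 1.13 CPM in caNrf2 libraries and 2.26, 2.52 and 3.14 CPM in ctrl libraries (log2 fold change -1.32, SE 0.25, edgeR adjusted p = 0.0057). Ifit2 had 16.9, 18.4 and 17.5 CPM in caNrf2 libraries and 24.4, 22.3 and 23.9 CPM in ctrl libraries (log2 fold change -0.42, SE 0.08, edgeR adjusted p = 0.00679). No caNrf2 library reached a ctrl library in any of these genes, and Ifit2, with the most counts, had the smallest fold change of them.

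Of the 50-base words of the main Ifit3 transcript, 51.2% also occur in other genes, most of them in its copy Ifit3b, so that the counts of these copies are uncertain. Ifit3b had 0.298, 0.113 and 0.230 CPM in caNrf2 libraries and 0.282, 0.759 and 0.364 CPM in ctrl libraries. Its groups overlapped and it was not called (edgeR adjusted p = 0.124).

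Xaf1, a pro-apoptotic antagonist of XIAP, had 3.19, 2.68 and 2.97 CPM in caNrf2 libraries and 4.51, 5.20 and 5.09 CPM in ctrl libraries. It fell, with the groups apart (log2 fold change -0.74, SE 0.15, edgeR adjusted p = 0.00763). Oasl2, of the oligoadenylate synthetase family that is activated by double-stranded RNA, had 0.379, 0.631 and 0.599 CPM in caNrf2 libraries and 0.789, 2.08 and 1.92 CPM in ctrl libraries. Ctrl 1 stood close to the caNrf2 libraries, although no caNrf2 library reached it. Of the Oasl2 counts, 62.7% in caNrf2 and 58.3% in ctrl cultures were assigned to ENSMUST00000144064, annotated as a nonsense-mediated decay transcript and not as protein-coding. The protein-coding transcripts of Oasl2 had few counts, at 0.15, 0.155 and 0.286 CPM in caNrf2 libraries and 0.353, 0.644 and 0.499 CPM in ctrl libraries. Oasl2 fell (log2 fold change -1.56, SE 0.39, edgeR adjusted p = 0.0221), but was no longer called without ctrl replicate 2 (adjusted p = 0.0741), ctrl replicate 3 (0.0679), caNrf2 replicate 1 (0.0723) or caNrf2 replicate 3 (0.0526).

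Bst2 was the one effector that rose. It encodes tetherin, which holds budding virus particles on the cell surface. It had 12.9, 10.4 and 10.6 CPM in caNrf2 libraries and 6.51, 7.84 and 8.59 CPM in ctrl libraries, with no overlap (fold 1.48, log2 fold change 0.57, SE 0.14, edgeR adjusted p = 0.0205). The call was lost without ctrl replicate 1 (adjusted p = 0.0617) or caNrf2 replicate 1 (0.0543). The summed leukocyte markers were also higher in all caNrf2 libraries and lowest in ctrl 1. Within the caNrf2 libraries the leukocyte sum was highest in caNrf2 2, where Bst2 was lowest by a small margin (10.4 CPM, against 10.6 CPM in caNrf2 3). A link between Bst2 and the leukocyte markers was not tested.

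The effectors that were tested and not called were Ifi27, Ifi35, Sp100 and Mx2. Ifi27, which encodes a small mitochondrial protein, had 50.4, 35.0 and 41.0 CPM in caNrf2 libraries and 45.8, 56.0 and 55.1 CPM in ctrl libraries, with overlap (log2 fold change -0.31, SE 0.14, edgeR adjusted p = 0.138). Ifi35 had 16.7, 13.5 and 10.9 CPM in caNrf2 libraries and 14.3, 15.7 and 15.6 CPM in ctrl libraries, a wide range in caNrf2 cultures that covered the ctrl values (edgeR adjusted p = 0.499). Sp100, a component of nuclear bodies that restrain DNA viruses, had 0.460, 0.631 and 0.461 CPM in caNrf2 libraries and 0.367, 0.893 and 0.793 CPM in ctrl libraries (edgeR adjusted p = 0.461). Mx2, a dynamin-like GTPase, had 0.623, 0.271 and 0.230 CPM in caNrf2 libraries and 0.282, 0.871 and 1.19 CPM in ctrl libraries, so that caNrf2 1 lay above ctrl 1 (log2 fold change -1.07, SE 0.55, edgeR adjusted p = 0.198).

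Oas1a, Oas2, Mx1, Rsad2 and Ifi44 did not pass the filter on low counts. Rsad2, which encodes the antiviral radical SAM enzyme viperin, had 2, 2 and 3 counts in caNrf2 libraries and 4, 14 and 13 in ctrl libraries. Ifi44 had 1, 1 and 2 counts in caNrf2 libraries and 3, 14 and 7 in ctrl libraries. With no filter both were called lower, at adjusted p = 0.0276 for Rsad2 and 0.0327 for Ifi44 in edgeR. Both had few counts in ctrl 1 as well. Oas1a (10, 7 and 5 counts in caNrf2 libraries, 3, 4 and 5 in ctrl libraries), Oas2 (2, 6 and 7 in caNrf2, 5, 5 and 2 in ctrl) and Mx1 (2, 4 and 1 in caNrf2, 3, 7 and 8 in ctrl) were not called in that fit either.

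The guanylate-binding proteins are large GTPases induced by interferon gamma that attack the vacuoles of intracellular pathogens. Their genes in the list moved in both directions within 1 gene cluster. Gbp2 (ENSMUSG00000028270, chromosome 3, 142620602 to 142638008) had 12.45, 9.74 and 10.2 CPM in caNrf2 libraries and 4.48, 5.58 and 4.5 CPM in ctrl libraries. It rose, with a fold of 2.22 (log2 fold change 1.15, SE 0.15, edgeR adjusted p = 0.000803), and was called in all 15 alternatives. Gbp7 (ENSMUSG00000040253, chromosome 3, 142530338 to 142550083) had 4.47, 5.01 and 5.55 CPM in caNrf2 libraries and 8.63, 7.35 and 8.99 CPM in ctrl libraries. It fell by 0.73 on the log2 scale (SE 0.14, edgeR adjusted p = 0.00622). Gbp3 (ENSMUSG00000028268, chromosome 3, 142560052 to 142573209), which lies between them, had 1.95, 1.8 and 1.82 CPM in caNrf2 libraries and 1.10, 1.63 and 1.98 CPM in ctrl libraries. Its groups overlapped (log2 fold change 0.25, SE 0.24, edgeR adjusted p = 0.501). Of the 50-base words of their main transcripts, 2.07% in Gbp2, 4.79% in Gbp3 and 5.19% in Gbp7 also occur in other genes. All 3 caNrf2 libraries were higher for Gbp2 and for the summed leukocyte markers. Within the groups the 2 were not ordered alike. The leukocyte sums were 187.2, 208.6 and 172.2 CPM in caNrf2 1 to 3, where Gbp2 was highest in caNrf2 1. They were 22.95, 67.13 and 67.22 CPM in ctrl 1 to 3, where Gbp2 was nearly equal in ctrl 1 and ctrl 3 and highest in ctrl 2. A link between Gbp2 and the leukocyte markers was not tested.

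Of the 6 genes of protein modification, 5 fell and Trim25 was not called. Usp18, which removes ISG15 from proteins and blocks signalling at IFNAR2, was the scarcest tested gene, with 6, 3 and 8 counts in caNrf2 libraries and 12, 34 and 22 counts in ctrl libraries. This was 0.162, 0.0677 and 0.184 CPM in caNrf2 libraries and 0.338, 0.759 and 0.727 CPM in ctrl libraries. Its fold of 0.228 was the lowest of the 34 genes and rests on few counts (log2 fold change -2.13, SE 0.47, edgeR adjusted p = 0.0123). Isg15, the ubiquitin-like modifier itself, had 1.14, 0.767 and 0.691 CPM in caNrf2 libraries and 1.13, 2.59 and 2.28 CPM in ctrl libraries. Here ctrl 1 was no higher than caNrf2 1, so the groups overlapped, although the gene was called (log2 fold change -1.22, SE 0.34, edgeR adjusted p = 0.0355). Isg15 kept its call in 9 of the 15 alternatives and lost it with limma-voom (adjusted p = 0.0507), with the replicate number as a block (0.0783), and without ctrl replicate 2 (0.113), ctrl replicate 3 (0.0983), caNrf2 replicate 2 (0.102) or caNrf2 replicate 3 (0.109).

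Parp9, Dtx3l and Parp14 are neighbours on chromosome 16, between 35832874 and 35972605. PARP9 and the ubiquitin ligase DTX3L act as a complex, and PARP14 is a mono-ADP-ribosyltransferase. Parp9 had 9.18, 9.02 and 9.42 CPM in caNrf2 libraries and 14.1, 14.3 and 16.3 CPM in ctrl libraries (log2 fold change -0.69, SE 0.10, edgeR adjusted p = 0.00132). Dtx3l had 9.91, 9.13 and 9.26 CPM in caNrf2 libraries and 12.8, 12.8 and 13.0 CPM in ctrl libraries (log2 fold change -0.45, SE 0.09, edgeR adjusted p = 0.00867). Parp14 had 9.82, 11.1 and 12.4 CPM in caNrf2 libraries and 15.5, 16.2 and 17.0 CPM in ctrl libraries (log2 fold change -0.55, SE 0.11, edgeR adjusted p = 0.00661). All of them fell with the groups fully apart. Parp9 and Dtx3l share 458 exonic bases on opposite strands, so that part of their counts cannot be assigned to either. Trim25, the ubiquitin ligase that activates RIG-I, was the most abundant of the modifiers and was not called. It had 57.2, 63.7 and 62.2 CPM in caNrf2 libraries and 59.9, 81.6 and 70.6 CPM in ctrl libraries, where ctrl 1 overlapped the caNrf2 libraries (log2 fold change -0.21, SE 0.11, edgeR adjusted p = 0.209).

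**Figure D4:**
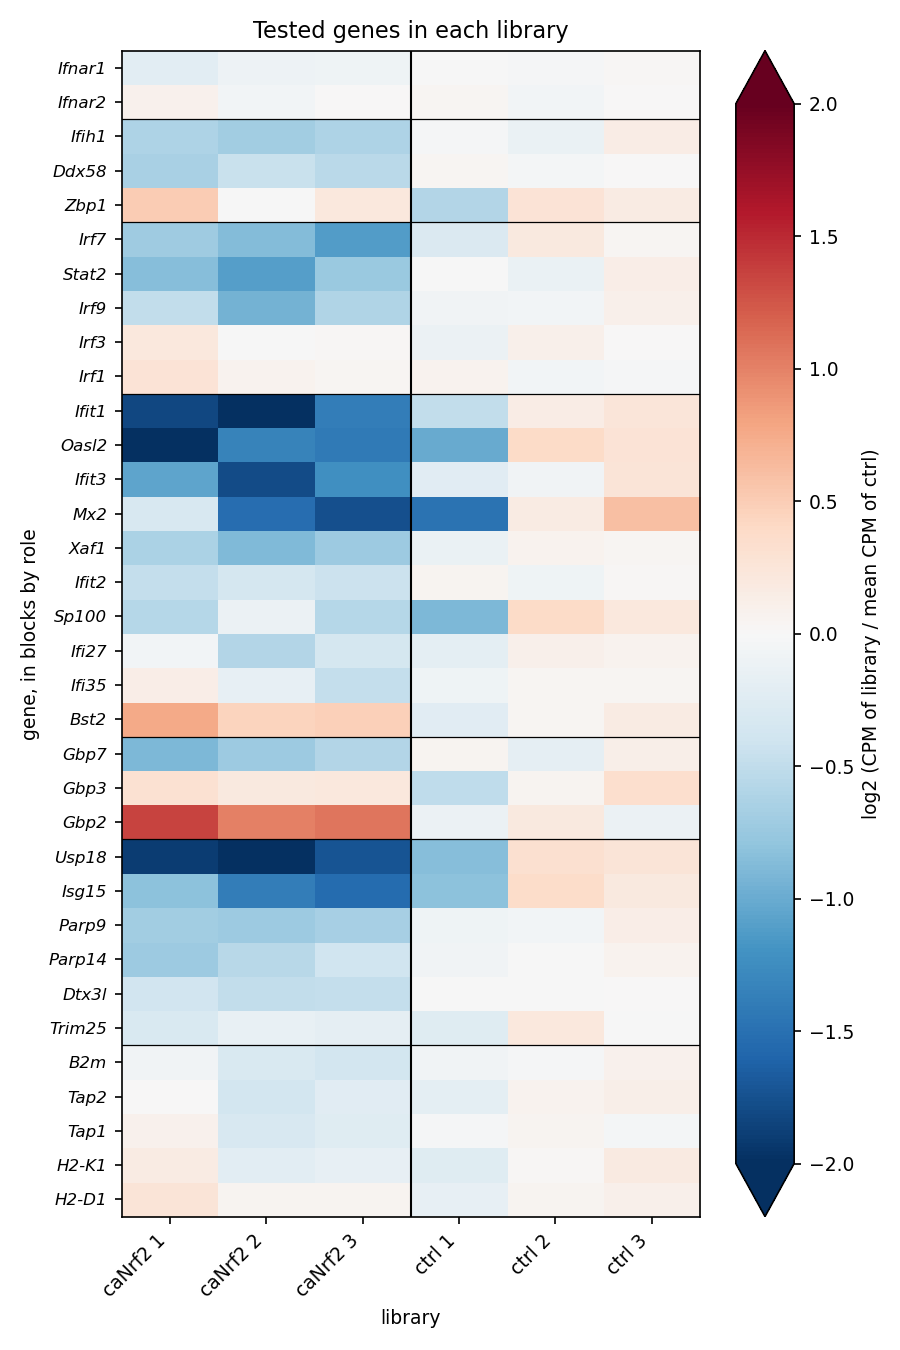
Each tested gene in each library as the log2 ratio of its CPM to the mean CPM of the ctrl libraries, in blocks by role, with caNrf2 libraries left of the line (blue is lower, red is higher, and colors end at 2 and -2). Blue runs through all 3 caNrf2 libraries for Ifih1, Ddx58, Stat2, Irf9 and most modifiers, and ctrl 1 is bluer than the other ctrl libraries for genes such as Oasl2, Mx2, Sp100, Usp18 and Isg15.

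None of the class I genes passed the test. B2m (ENSMUSG00000060802, chromosome 2, 122147686 to 122153083), the light chain of all class I molecules, had 196.1, 166.7 and 160.2 CPM in caNrf2 libraries and 196.5, 202.6 and 217.8 CPM in ctrl libraries. Each caNrf2 library was below each ctrl library, but caNrf2 1 only just so (log2 fold change -0.24, SE 0.10, edgeR adjusted p = 0.119). Without caNrf2 replicate 1 it was called lower (log2 fold change -0.33, edgeR adjusted p = 0.0288). H2-K1 and H2-D1 encode the classical heavy chains. H2-K1 had 102.4, 79.1 and 81.8 CPM in caNrf2 libraries and 77.9, 93.3 and 104.2 CPM in ctrl libraries (log2 fold change -0.06, SE 0.13, edgeR adjusted p = 0.755). H2-D1 had 154.8, 135.2 and 133.9 CPM in caNrf2 libraries and 115.3, 134.8 and 138.4 CPM in ctrl libraries (log2 fold change 0.13, SE 0.10, edgeR adjusted p = 0.398). In both heavy chains the groups overlapped broadly. These genes differ between mouse strains and resemble each other, with 14.3% of the 50-base words of H2-D1 and 8.79% of those of H2-K1 found in other genes, so their counts are uncertain. The sources used here do not give the class I alleles of these mice.

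Tap1 and Tap2, the subunits of the peptide transporter, were not called either. Tap1 had 20.4, 15.3 and 16.2 CPM in caNrf2 libraries and 18.8, 19.9 and 18.7 CPM in ctrl libraries (log2 fold change -0.15, edgeR adjusted p = 0.387). Tap2 had 29.6, 22.9 and 25.1 CPM in caNrf2 libraries and 25.6, 30.8 and 31.9 CPM in ctrl libraries (log2 fold change -0.19, edgeR adjusted p = 0.304). In both gene totals, caNrf2 1 lay among or above the ctrl libraries. Of the Tap2 counts, 82.2% in caNrf2 and 78.5% in ctrl cultures were assigned to the retained-intron transcript ENSMUST00000127543. The main protein-coding transcript ENSMUST00000025197 had 2.64, 2.25 and 2.17 TPM (scaled by transcript length) in caNrf2 libraries and 3.49, 3.12 and 3.46 TPM in ctrl libraries. These groups were apart, a split looked at after the values were seen, and the level of this transcript was not tested. Of the 5 class I genes, 0 were called by edgeR, DESeq2 or limma-voom, and 1, B2m, had an unadjusted p under 0.05 in edgeR.

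Levels can be compared between genes only per length, in TPM, which divides by transcript length. By mean TPM, B2m, H2-D1, Ifi27 and H2-K1 led the list. B2m had 410 TPM in caNrf2 and 506 TPM in ctrl cultures, H2-D1 had 154 TPM in caNrf2 and 164 TPM in ctrl cultures, and Ifi27 had 107 TPM in caNrf2 and 142 TPM in ctrl cultures. The factors stood in the middle, Irf3 at 56.9 TPM in caNrf2 and 55.2 TPM in ctrl cultures and Stat2 at 11.3 TPM in caNrf2 and 21.9 TPM in ctrl cultures. Ddx58 and Bst2 were close in ctrl cultures and apart in caNrf2 cultures. Ddx58 had 14.6 TPM in caNrf2 and 22.9 TPM in ctrl cultures, and Bst2 had 30.6 TPM in caNrf2 and 21.6 TPM in ctrl cultures. Gbp2 had 7.89 TPM in caNrf2 and 3.71 TPM in ctrl cultures, and Gbp7 had 1.63 TPM in caNrf2 and 2.81 TPM in ctrl cultures, so that they too were close in ctrl cultures and apart in caNrf2 cultures. The effectors Ifit1, Oasl2 and Mx2 and the protease gene Usp18 were at most 0.603 TPM in caNrf2 and 2.01 TPM in ctrl cultures.

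The libraries of each group differed from each other across the list. Ctrl 1 was the lowest ctrl library in 25 of the 34 tested genes and in 11 of the 16 that fell, while ctrl 3 was lowest in 1 of the 34. Among caNrf2 libraries, caNrf2 1 was the highest in 21 of the 34 and caNrf2 2 the lowest in 19. For the class I genes, the summed level was 503.3, 419.2 and 417.1 CPM in caNrf2 libraries and 434.0, 481.4 and 511.1 CPM in ctrl libraries, so caNrf2 1 was on the ctrl side and ctrl 1 on the caNrf2 side. The sensors showed no such exchange, with summed levels of 33.1, 35.9 and 34.7 CPM in caNrf2 libraries and 50.5, 48.3 and 51.0 CPM in ctrl libraries. Ctrl 1 was also the library with the fewest leukocyte marker counts. Without ctrl replicate 1, 19 genes were called lower and 1 higher.

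**Figure D5:**
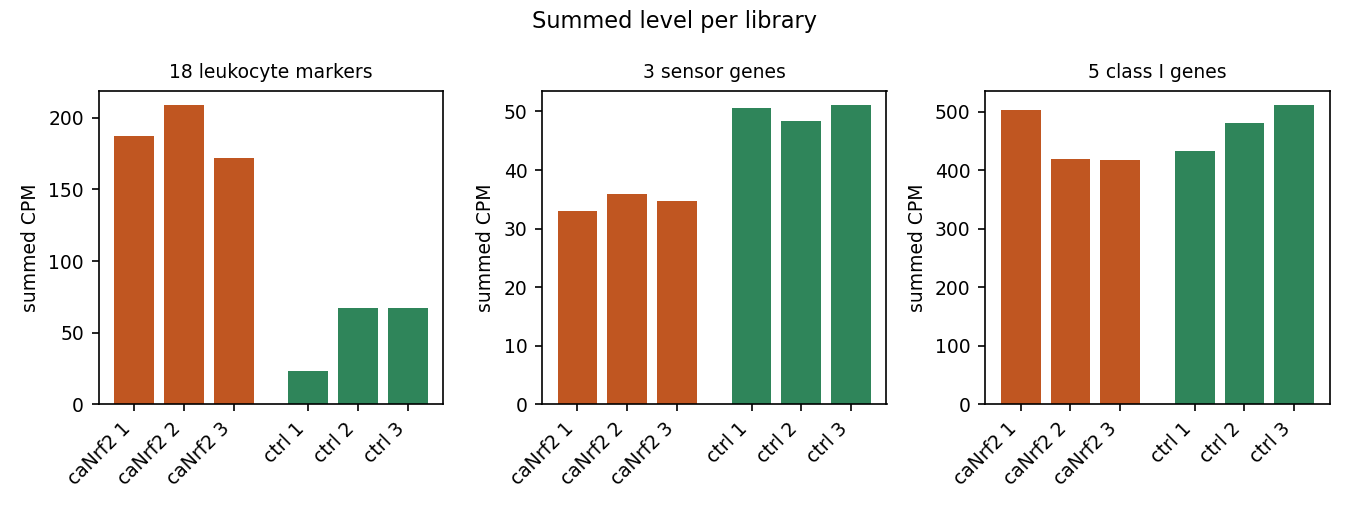
Summed CPM per library of the 18 leukocyte markers, the 3 sensor genes and the 5 class I genes (bars, 1 per library, caNrf2 left of ctrl). The leukocyte markers are higher and the sensors lower in all 3 caNrf2 libraries, and the class I sums of the groups overlap.

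Beyond the 39 genes, 102 further genes of interferon signalling and antigen presentation were found in the tables, of which 89 were tested. In these, 13 were lower and 12 higher, with a median log2 fold change of -0.10. The share called lower was 14.6%, against 9.03% of all genes tested. The share called higher was 13.5%, near the 12.5% of all genes tested. Without caNrf2 replicate 2, 7 of the further genes were lower, and without caNrf2 replicate 3, 8 were. The named lower genes were Slfn5, Tor3a, Irf5 and Rtp4. Slfn5, an interferon-induced regulator of the Schlafen family, had 2.17, 1.74 and 2.49 CPM in caNrf2 libraries and 4.93, 7.70 and 8.69 CPM in ctrl libraries (log2 fold change -1.74, SE 0.24, edgeR adjusted p = 0.00113). Tor3a, an interferon-induced ATPase of the endoplasmic reticulum, had 24.2, 23.2 and 24.1 CPM in caNrf2 libraries and 34.7, 35.5 and 40.5 CPM in ctrl libraries (log2 fold change -0.63, SE 0.08, edgeR adjusted p = 0.00101). Irf5, a factor downstream of Toll-like receptors, had 4.63, 4.74 and 4.68 CPM in caNrf2 libraries and 8.06, 7.86 and 6.94 CPM in ctrl libraries (log2 fold change -0.70, SE 0.12, edgeR adjusted p = 0.00383). Rtp4, a chaperone that also restrains flaviviruses, had 0.325, 0.338 and 0.253 CPM in caNrf2 libraries and 0.761, 0.848 and 0.959 CPM in ctrl libraries (edgeR adjusted p = 0.00539). In each of them the groups were fully apart.

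The named higher genes of this wider list were H2-T22, Igtp, Lgals9, Socs3 and Ctss. H2-T22, a non-classical class I gene recognised by gamma delta T cells, had 57.3, 60.7 and 53.3 CPM in caNrf2 libraries and 28.3, 29.6 and 29.3 CPM in ctrl libraries (log2 fold change 0.97, SE 0.08, edgeR adjusted p = 4.10e-05). It shares 44.7% of its 50-base words with other genes, most of them with its copy H2-T10, and its counts are therefore uncertain. H2-T10, named after its values were seen, had 22.3, 24.0 and 19.9 CPM in caNrf2 libraries and 5.27, 6.70 and 7.44 CPM in ctrl libraries (log2 fold change 1.77, edgeR adjusted p = 4.08e-05). Both copies were called higher. As said for H2-K1 and H2-D1, the class I alleles of these mice are not given, and their part in this difference was not tested. Of the 19 further class I genes, 2 (10.5%) were higher and 0 were lower in edgeR, against 12.5% and 9.03% of all genes tested. The higher ones were H2-T22 and Nlrc5, the transactivator of class I genes (named after its values were seen). Nlrc5 had 10.3, 11.4 and 13.4 CPM in caNrf2 libraries and 7.89, 7.50 and 8.16 CPM in ctrl libraries (log2 fold change 0.58, SE 0.12, edgeR adjusted p = 0.0102).

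Igtp, an immunity-related GTPase induced by interferon gamma, had 12.2, 9.0 and 10.2 CPM in caNrf2 libraries and 3.07, 3.28 and 3.57 CPM in ctrl libraries (log2 fold change 1.66, SE 0.15, edgeR adjusted p = 0.000103). Lgals9, which encodes galectin-9, had 162.8, 148.2 and 130.7 CPM in caNrf2 libraries and 69.2, 72.4 and 56.8 CPM in ctrl libraries (log2 fold change 1.15, SE 0.12, edgeR adjusted p = 0.000209). Socs3, an inhibitor of cytokine receptor signalling, had 50.3, 49.6 and 50.5 CPM in caNrf2 libraries and 18.4, 26.6 and 21.4 CPM in ctrl libraries (log2 fold change 1.18, SE 0.12, edgeR adjusted p = 0.000269). All of these were apart from the ctrl libraries by more than the spread within either group. Ctss, the lysosomal protease that prepares class II molecules for peptides, had 22.6, 21.1 and 19.3 CPM in caNrf2 libraries and 1.44, 5.0 and 5.65 CPM in ctrl libraries (log2 fold change 2.38, SE 0.37, edgeR adjusted p = 0.0022). Like Lyz2, it was lowest in ctrl 1.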

How the data were processed

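RNA of 3 caNrf2 and 3 ctrl cultures was sequenced. For each library the authors deposited expected counts and TPM per transcript, made with CASAVA 1.8 and RSEM 1.2.21 on GRCm38 per the submitters' processing notes. Neither an aligner, an annotation release nor a strand setting is given in the sources used here. Expected counts split ambiguous reads by a model, so values of close copies depend on it, and TPM keeps no depth.

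Expected counts of 104129 transcripts were summed over 43629 genes and rounded. Genes were filtered with filterByExpr (minimum count 10, minimum total 15), scaled by TMM and tested with edgeR 4.0.16 (R 4.3.3; glmQLFit, glmQLFTest, two-sided), with p-values adjusted over all 15341 genes. SE is the log2 fold change over the root of F. Transcript usage was tested with diffSpliceDGE. The fits were tested on simulated counts. The 15 alternatives were other size factors, other filters, DESeq2 1.42.0, limma-voom (limma 3.58.1), posterior mean counts, a replicate block and leaving out each library. Nothing says how the cultures were separated beyond 3 mice per group, so p-values measure the spread between these libraries.

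The 39 genes, the further lists and the tests were chosen with earlier results of these data known. All 39 may be named. Of the further pathway genes, those named are the 5 with the smallest adjusted p in each direction, Jak1, Tyk2 and the interferon genes. Of the leukocyte markers, the most abundant and the one with the smallest adjusted p are named. 1 gene that this rule names is not reported here. Promoter sequences are from RefSeq (GRCm38.p6), where 30 of the 39 symbols matched, and 50-base words are from the GENCODE M21 transcripts. Of the symbols in the further list, 102 of 105 matched. Total expected counts were 37032008, 44925935 and 43553444 in caNrf2 libraries and 34728375, 45164208 and 30168400 in ctrl libraries.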

Additional observations from a re-analysis of the deposited data

How the results depend on the processing

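Of the 39 genes, 14 to 18 were called lower under the alternatives that kept all libraries (14 with at least 1 CPM in 3 libraries, 15 with limma-voom and 18 with no filter) and 14 to 19 with 1 library left out. The 18 and the 19 include genes with few counts that the main fit did not test. The 2 higher calls became 1 to 2 with a library left out, and Gbp2 was called in every alternative. In all, 13 of the 16 lower genes and 1 of the 2 higher genes were called in all 15 alternatives. Usp18 was called in the 14 that could test it, since it did not pass the stricter filter, and Oasl2, Isg15 and Bst2 lost calls. Of 506 values of the 34 genes under alternatives, 486 kept their direction and side of the threshold, 12 lost a call, 3 gained one and 5 changed sign, all in genes that were not called. The sign changes were in Ifnar2, at a log2 fold change of -0.0202 with upper-quartile factors, -2.741e-05 with total counts and -0.0205 (without caNrf2 replicate 1) to 0.0406 (without caNrf2 replicate 2) with a library left out, and in H2-K1, at -0.191 (without caNrf2 replicate 1) to 0.0326 (without ctrl replicate 3). The further pathway genes called lower were 7 to 10 with a library left out, against 13 with all. Transcript usage was called in 0 to 1 genes with a library left out, the 1 being Ifnar1 without ctrl replicate 3 (edgeR diffSpliceDGE adjusted p = 0.036). The cause of these changes was not tested. All genes called numbered 3302 with all libraries and 2206 to 2898 with 1 left out. Restricting the ISRE search to the bases before the start left 11 of 13 genes. With the replicate number as a block, 15 of the 39 genes were lower and 2 higher, and Isg15 lost its call (adjusted p = 0.0783). The block called 12 further genes lower and 12 higher, 3218 genes in all, 17 leukocyte markers higher and transcript usage in 0 of the 39. The deviations of same-numbered libraries correlated at 0.214, 0.209 and 0.0953, and those of differently numbered libraries at -0.242 to 0.112. Each ctrl library correlated best with its own number, while caNrf2 3 correlated better with ctrl 2 (0.112) than with ctrl 3. These values do not settle whether the numbers pair the libraries. The sources used here state no pairing, so the main fit had no block. Usp18, with 3 to 34 counts per library, Mx2 and the 5 untested genes rest on few counts.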
